A study of Mus musculus with 2 samples.

Results

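NPGL stands for near-projecting glutamatergic neurons, and 145 of 16314 nuclei carried this name in 2 single-nucleus ATAC-seq libraries of mouse primary motor cortex. Its members are all nuclei annotated NPGL, 83 of 7440 in replicate 1 and 62 of 8874 in replicate 2. They were taken by this name alone, which the authors had assigned from chromatin accessibility. The name itself was chosen with earlier results of these data known, among them that it was the rarest glutamatergic name. Its rarity is therefore a description.

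Single-nucleus ATAC-seq uses a transposase to cut accessible DNA, so each nucleus yields a set of fragments from its open chromatin. Both libraries came from MOp-2, the motor cortex dissection coded 3C, and were made on the droplet-based 10x platform as replicates 1 and 2 of 1 condition. The mice were C57BL/6J males aged 56 to 63 days, with no treatment or genetic change named in the labels. Each biological replicate pooled tissue of several mice according to the methods. Whether that holds for the droplet libraries is not stated, so the spread between the replicates may be biological or technical.

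Near-projecting neurons are excitatory cells of the deep cortical layers whose axons stay mostly close to home and lack the long-range targets of other deep-layer projection neurons. They are set here beside corticothalamic neurons (CTGL), which send axons to the thalamus, and pyramidal tract neurons (PTGL), which project to the brainstem and spinal cord. The 7 glutamatergic names also include 4 intratelencephalic names, which connect cortical areas and the striatum and are ordered by layer from ITL23GL at the top through ITL4GL and ITL5GL to ITL6GL.

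The study's markers for NPGL are 3 protein-coding genes, whose positions follow mm10 (GRCm38) and the GENCODE M21 annotation. Tshz2, which encodes a zinc finger homeobox transcription factor, spans 169633013 to 170071816 on the plus strand of chromosome 2. Rapgef3, which encodes EPAC1, a cAMP-activated exchange factor for Rap proteins, spans 97744770 to 97767972 on the minus strand of chromosome 15. Olfm3, which encodes a secreted olfactomedin-domain protein, spans 114904078 to 115125722 on the plus strand of chromosome 3. The tables used here give no accessibility value for any gene, so the name was taken as deposited and was not checked against these markers.

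NPGL was the rarest glutamatergic name in both libraries. It made up 2.14% of the 3882 glutamatergic nuclei in replicate 1 (95% Clopper-Pearson interval 1.71 to 2.64) and 1.32% of 4701 in replicate 2 (1.01 to 1.69), which gives 1.73% ± 0.579 (SD, n = 2 libraries). The 2 intervals did not overlap, and they cover counting error only. The share in replicate 2 was 0.617 times that in replicate 1, a log2 ratio of -0.70 with a counting interval of -1.17 to -0.23. Among all nuclei the shares were 1.12% (0.890 to 1.38) and 0.699% (0.536 to 0.895). Of the 17 annotated names, only pericytes (PER) held fewer nuclei than NPGL in either library, with 55 and 56.

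The shares of both deep-layer peers were higher in replicate 2 than in replicate 1, opposite to that of NPGL. CTGL was 16.7% and 21.0% of glutamatergic nuclei, with a log2 ratio of replicate 2 over replicate 1 of 0.33 (0.20 to 0.46). PTGL was 4.74% and 6.93%, with a log2 ratio of 0.55 (0.30 to 0.80). Shares of one total depend on each other, so the NPGL share was also taken among the glutamatergic nuclei that were neither CTGL nor PTGL. It was then 2.72% (2.17 to 3.36) and 1.83% (1.41 to 2.34), and the log2 ratio was -0.57 (-1.04 to -0.10).

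**Figure D1:**
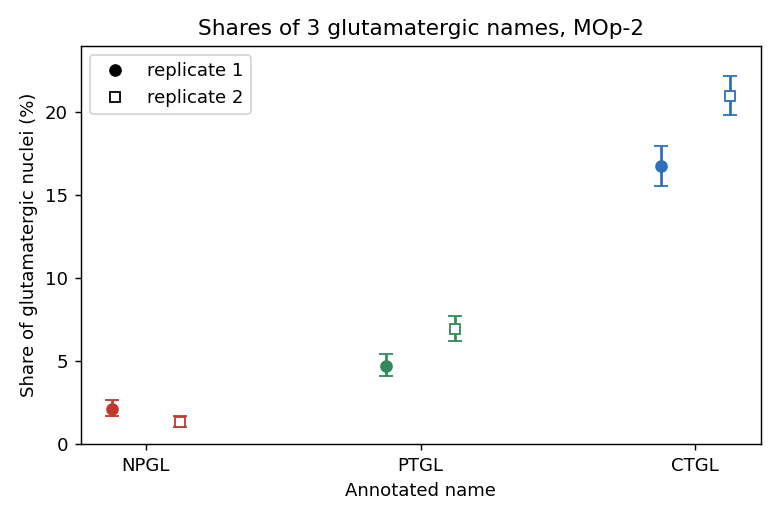
Share of glutamatergic nuclei (percent, from 0) for NPGL, PTGL and CTGL in replicate 1 (filled circles) and replicate 2 (open squares), with exact 95% intervals as bars. NPGL lies lowest at 2.14% and 1.32% and is lower in replicate 2, whereas PTGL and CTGL are higher there.

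Counted against its peers, NPGL differed more between the libraries than its share did. This follows by arithmetic from the higher shares of both peers in replicate 2 and is not a further result. Replicate 1 held 12.8 NPGL nuclei for every 100 CTGL nuclei (10.0 to 16.1) and replicate 2 held 6.28 (4.78 to 8.12), a mean of 9.53 ± 4.59 (SD, n = 2). For every 100 PTGL nuclei there were 45.1 NPGL nuclei (34.4 to 58.8) in replicate 1 and 19.0 (14.3 to 25.02) in replicate 2, a mean of 32.1 ± 18.4. The log2 ratios of replicate 2 over replicate 1 were -1.02 (-1.52 to -0.53) against CTGL and -1.25 (-1.79 to -0.70) against PTGL. Against ITL23GL, the upper-layer neurons, the counts were 7.10 and 5.21 for every 100, and the interval of the log2 ratio (-0.94 to 0.04) held 0. The order of the 3 names was the same in both libraries, with 7.83 and 15.9 CTGL nuclei and 2.22 and 5.26 PTGL nuclei for each NPGL nucleus. With 1 condition and 2 libraries no test between groups was possible, and even a paired exact test over 2 libraries cannot give a two-sided p below 0.5. Differences in dissection, mouse pool and library preparation cannot be told apart here.

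NPGL nuclei carried fewer unique fragments than their peers in both libraries. A unique fragment is one that remains after duplicates are removed, and no nucleus with under 1000 of them is listed. In replicate 1 the NPGL nuclei ranged from 1144 to 13456 unique fragments with a median of 6715 and quartiles of 4736 and 7994.5. In replicate 2 they ranged from 1072 to 18235 with a median of 6388 and quartiles of 3787 and 8455.5. The mean of the medians was 6552 ± 231 (SD, n = 2), against 7354 ± 349 for CTGL and 10761 ± 335 for PTGL. Over all nuclei the medians were 6169.5 and 5457, from library totals of 48179226 and 55337466 unique fragments.

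The NPGL median was 0.883 and 0.899 times the CTGL median in the same library (0.891 ± 0.0109, n = 2), and 0.611 and 0.607 times the PTGL median (0.609 ± 0.00255). The gap to both peers was therefore larger than the spread of these ratios between libraries. The uncertainty from the number of nuclei was wider for CTGL than that spread. An order-statistic interval, with a coverage of 95.2% to 97.0% for NPGL, put the NPGL median between 6159 and 7302 in replicate 1 and between 4658 and 7512 in replicate 2. The corresponding CTGL intervals were 7362 to 7774, which lay above that of NPGL, and 6910 to 7302, which lay inside it. The PTGL intervals of 10077 to 11503 and 10014 to 10833 lay above those of NPGL in both libraries. These intervals describe variation among nuclei, which are not replicates.

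NPGL had the lowest median of the 7 glutamatergic names in each library. The next lowest name was ITL4GL in replicate 1 (7393) and CTGL in replicate 2 (7107). Among all 17 names NPGL ranked ninth from the top in both, below the Pvalb+ (PVGA) and Sst+ (SSTGA) interneurons and above the CGE interneurons and all non-neuronal names. The NPGL nuclei together held 543449 and 414992 unique fragments, 1.63% and 1.08% of those in glutamatergic nuclei. Both figures were below the corresponding shares of nuclei.

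**Figure D2:**
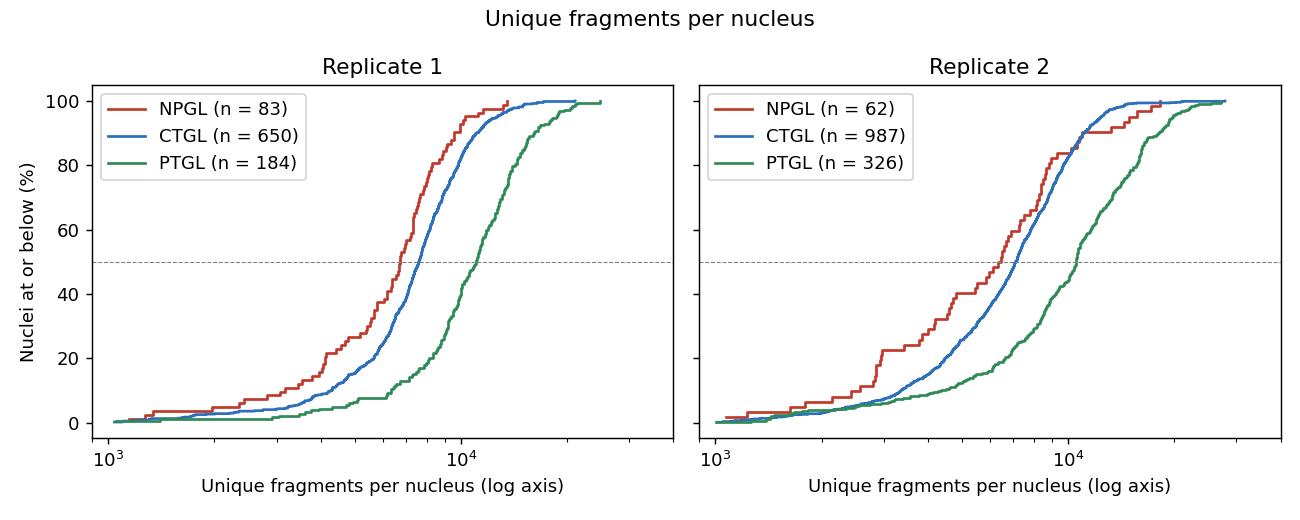
Percent of nuclei at or below each number of unique fragments (log axis) for NPGL, CTGL and PTGL, with one panel per replicate and a dashed line at 50%. The NPGL curve crosses 50% to the left of both peers in each replicate, and at the top of replicate 2 it meets and crosses that of CTGL.

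The spread of fragment numbers was widest for NPGL among the glutamatergic names. The SD of log10 unique fragments was 0.213 and 0.276 for NPGL in replicates 1 and 2, 0.191 and 0.218 for CTGL, and 0.192 and 0.264 for PTGL. At the shallow end, 22 of 83 NPGL nuclei (26.5%, 17.4 to 37.3) and 25 of 62 (40.3%, 28.1 to 53.6) had under 5000 unique fragments. The same limit held 15.2% and 25.6% of CTGL nuclei and 6.52% and 12.3% of PTGL nuclei. At the deep end, 6 NPGL nuclei (7.23%, 2.70 to 15.1) and 10 (16.1%, 8.02 to 27.7) reached 10000. The CTGL shares there were 17.8% and 17.6%, so NPGL lay below CTGL at this limit in replicate 1 but close to it, within a wide interval, in replicate 2. At least 13000 unique fragments were found in 2 NPGL nuclei of replicate 1 (2.41%, 0.293 to 8.43) and 6 of replicate 2 (9.68%, 3.63 to 19.9), beside 4.15% and 3.14% of CTGL, so the order of the 2 names was not the same in both libraries.

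The deposited tables follow each nucleus through 4 successive counts, which are total fragments (TN), uniquely mapped fragments (UM), properly paired fragments (PP) and unique fragments (UQ). The NPGL medians in replicates 1 and 2 were 8158 and 7794 for TN, 7821 and 7509 for UM, and 7748 and 7468 for PP. The ratio of the NPGL to the CTGL median was 0.887 and 0.893 for TN, 0.886 and 0.894 for UM, and 0.882 and 0.894 for PP. Against PTGL it was 0.611 in both libraries for TN. The lower fragment number of NPGL was thus already present in the total count, and the later steps moved the ratios by little.

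NPGL lay at the low edge of a narrow range in the shares kept at mapping and pairing, but not at the removal of duplicates. The median uniquely mapped share of an NPGL nucleus was 95.90% in replicate 1 and 95.96% in replicate 2, the lowest of the 7 glutamatergic names in both. The other 6 names lay between 96.04% and 96.20% in replicate 1 and between 96.10% and 96.34% in replicate 2. The median share of those fragments that were properly paired was 99.40% and 99.46%, the lowest of all 17 names in each library. The next glutamatergic name, ITL23GL, had 99.46% and 99.50%. These lay between the NPGL quartiles, which were 99.30% and 99.49% in replicate 1 and 99.35% and 99.57% in replicate 2. No interval was computed for the medians of mapping and pairing, so these ranks are descriptions. The median duplicate share, the percent of properly paired fragments lost as copies, was 13.6% and 14.3%, a mean of 13.97% ± 0.528 (n = 2). In that measure NPGL was the highest glutamatergic name in replicate 1 and the lowest in replicate 2, so it had no fixed place. The mitochondrial count was 0 in every nucleus of both libraries. Whether such fragments were removed before counting is not stated, so this column was not read as a measure of quality.

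The nucleus with the most total fragments among all 16314 was an NPGL nucleus of replicate 1. It had 105190 total fragments, 6.44 times the next NPGL nucleus of that library (16332), where the second highest nucleus of any name had 39574. Only 3163 of its fragments (3.01%) were uniquely mapped, 2808 were properly paired and 2349 were unique. It was the only nucleus of either library with under 50% of its fragments uniquely mapped, whereas the lowest share among the other NPGL nuclei was 89.3%. This nucleus held 13.8% of all total fragments of NPGL in replicate 1. Summed over nuclei, the uniquely mapped share of NPGL in that library was 83.0% with it and 95.8% without it, and 95.8% in replicate 2. Its unique count, in contrast, lay within the range of the other NPGL nuclei.

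**Figure D3:**
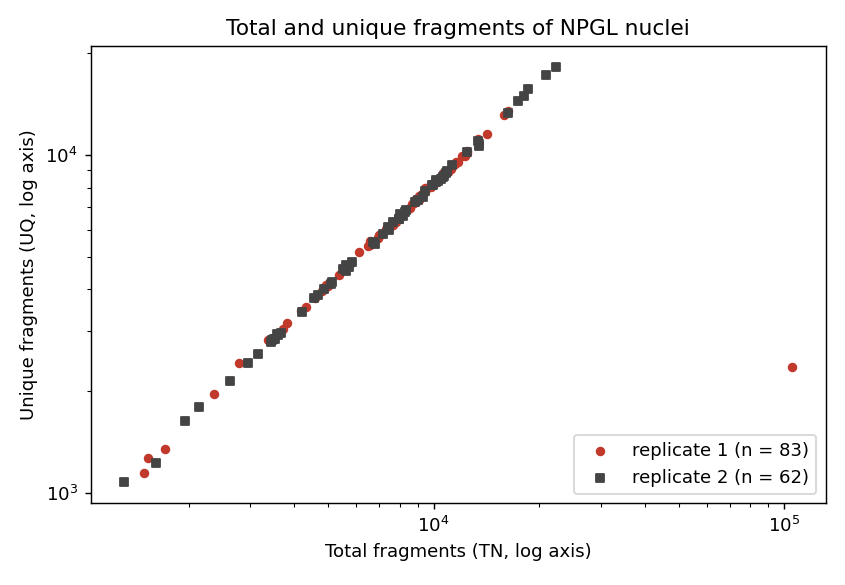
Unique against total fragments (both log axes) of each NPGL nucleus, for replicate 1 (red circles) and replicate 2 (dark squares). All but 1 nucleus lie along a narrow line, and the exception, in replicate 1, has 105190 total and 2349 unique fragments.

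In the deposited UMAP embedding, a map in 2 coordinates without unit in which nuclei with similar accessibility lie close together, NPGL formed 1 separate group. Names and map derive from the same accessibility values, so this separation is a description. Linked by steps of at most 1 UMAP unit, 144 of 145 NPGL nuclei belonged to a single group that held nuclei of both libraries. On average, 97.9% of the 30 nearest neighbours of an NPGL nucleus were NPGL in replicate 1 and 99.4% in replicate 2 (98.6% ± 1.02, n = 2). The values were 99.5% in both libraries for CTGL, and 100% and 99.4% for PTGL. All 30 neighbours were NPGL for 110 of the 145 nuclei.

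The exceptions came down to a pair of nuclei, singled out after their positions were seen. One vascular endothelial (VEC) nucleus of replicate 1, with 2053 unique fragments, lay within the NPGL group at 0.00947 UMAP units from its nearest member. It was among the neighbours of 34 of the 35 NPGL nuclei with any neighbour of another name. The remaining nucleus was an NPGL nucleus of replicate 1 with 5660 unique fragments that lay apart from the group, at -1.88 and -5.84 in the map, among CTGL. Its neighbours were 24 CTGL and 6 ITL4GL nuclei, and none was NPGL. Its uniquely mapped share of 95.56% lay just below the lower quartile of NPGL in its library (95.62%), and its duplicate share of 14.0% lay between the quartiles (13.1% and 14.1%).

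CTGL was the glutamatergic name nearest to NPGL for every nucleus of the group. The distance between the centres of NPGL and CTGL was 4.12 UMAP units, and the next centre, that of vascular and leptomeningeal cells (VLMC), lay at 7.34. PTGL, the other deep-layer peer, lay at 20.8 and ranked 15th of 16 names. Leaving aside the VEC nucleus, the shortest gap from the NPGL group to any nucleus of another name was 1.22, to a CTGL nucleus. NPGL nuclei lay tightly packed, with a median step of 0.00390 to the nearest member, so that gap was 312 times the step. The shortest gap to another glutamatergic name was 3.49 for PTGL, 222 times its step, and 0.0490 for CTGL, 2.25 times its step. Separation was thus not particular to NPGL, and in map units PTGL lay farther from the other glutamatergic names. Distances in a UMAP are not a linear measure of similarity, and the ratio depends on how densely each name was packed.

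**Figure D4:**
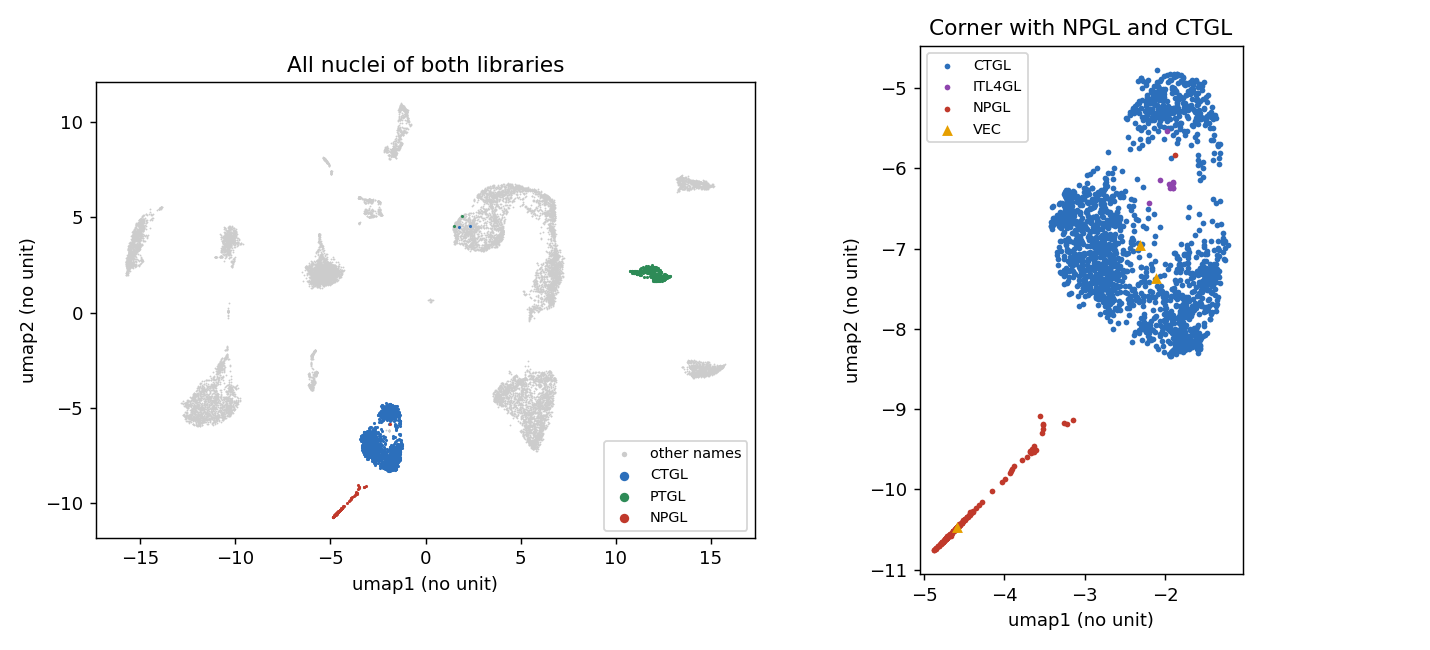
The deposited UMAP (umap1 and umap2, no unit, equal scales), with all nuclei on the left and the region of NPGL and CTGL on the right. NPGL (red) forms a thin strand below CTGL (blue), with 1 VEC nucleus (orange triangle) on it and 1 NPGL nucleus among CTGL, and PTGL (green, left panel) lies far to the right.

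On average over nuclei, the 2 libraries were mixed within NPGL. Of the 30 nearest NPGL neighbours of a replicate 1 nucleus, on average 40.9% belonged to replicate 2, and 43.1% would if nuclei of the name were mixed at random. For replicate 2 nuclei, 58.4% belonged to replicate 1, against 57.6% under random mixing. Observed over random mixing was 0.982 for NPGL over both libraries, beside 0.994 for CTGL and 0.953 for PTGL. These ratios are not fully alike, because 30 neighbours are a larger part of 145 NPGL nuclei than of 1637 CTGL or 510 PTGL nuclei. A larger part draws the value towards random mixing. Of the cell barcodes, 105 occurred in both libraries, and 11 of those had the same name. The shared barcodes were 1.41% of all nuclei in replicate 1 and 1.18% in replicate 2. They included 2 of the 83 NPGL nuclei of replicate 1 and 1 of the 62 of replicate 2, and none was NPGL in both. These counts are too small to set NPGL apart from all nuclei.

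The NPGL group was a thin strand. A single axis held 99.8% of the variance of its 144 positions, against 88.9% for the largest group of PTGL and 71.7% for that of CTGL, and the largest value of the other 6 glutamatergic names was that of PTGL. The strand was 2.36 UMAP units long, with a median distance of 0.00306 from its axis, and its thinly filled end pointed towards CTGL. Position was counted from 0 at the end away from CTGL. The longest empty step along the axis, 0.189, separated the nuclei up to 0.843 from those beyond. Limits of 0.9 and 1.5 were set after the positions were seen, and they divide the strand into a main, a middle and a far stretch. The limit of 0.9 fell in that longest step. The limit of 1.5 fell between nuclei at 1.44 and 1.57, although a wider step, from 1.80 to 1.98, lay within the far stretch. The border of middle and far is therefore a choice.

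The main stretch held 68 of 82 nuclei in replicate 1 (82.9%) and 44 of 62 in replicate 2 (71.0%), and the middle stretch held 4 and 3. The far stretch held 10 (12.2%, 6.01 to 21.3) and 15 (24.2%, 14.2 to 36.7). Nuclei beyond the main stretch thus made up 17.1% (9.66 to 27.0) of the group in replicate 1 and 29.0% (18.2 to 41.9) in replicate 2, with intervals that overlapped. At the tip towards CTGL the few nuclei lay apart by library. Those from 2.02 to 2.12 were all of replicate 1, and those from 2.26 to 2.36 were all of replicate 2.

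Between the stretches so drawn, fragment numbers differed in the same way in both libraries, though the middle held only 4 and 3 nuclei. Main nuclei ranged from 1965 to 11505 unique fragments in replicate 1 (median 6655) and from 2136 to 10957 in replicate 2 (median 5746). The 7 middle nuclei had 1072, 1144, 1228, 1343, 1630, 2349 and 4024 unique fragments, and 5 of them lay below every main nucleus. Far nuclei ranged from 1267 to 13456 (median 8166) and from 1797 to 18235 (median 8400). The far median was 1.23 and 1.46 times the main median. All 8 NPGL nuclei deeper than every main nucleus, each with at least 13151 unique fragments, lay in the far stretch, 2 in replicate 1 and 6 in replicate 2. Of the 6 group members with under 1700 unique fragments, 5 lay in the middle stretch, 1 in the far stretch and 0 in the main stretch.

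The deepest and the shallowest NPGL nuclei were therefore both found nearer to CTGL than the main stretch was. Over the nuclei of the strand, Spearman's rho between position and unique fragments was 0.29 in replicate 1 (n = 82) and 0.32 in replicate 2 (n = 62), given as a description because nuclei of 1 library share its preparation and depth. Within the main stretch alone rho was 0.36 (n = 68) and 0.34 (n = 44). In replicate 1 the median uniquely mapped share was 95.9% in the main stretch, 90.5% in the middle and 96.2% in the far stretch. In replicate 2 the 3 medians lay close together, at 96.0%, 95.7% and 96.1%. The 4 NPGL nuclei with shares under 92% were all in the middle stretch, at 3.01%, 89.3% and 91.7% in replicate 1 and 90.0% in replicate 2, and the first of them was the nucleus with 105190 total fragments. The part of fragment number and mapping in these positions was not tested.

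**Figure D5:**
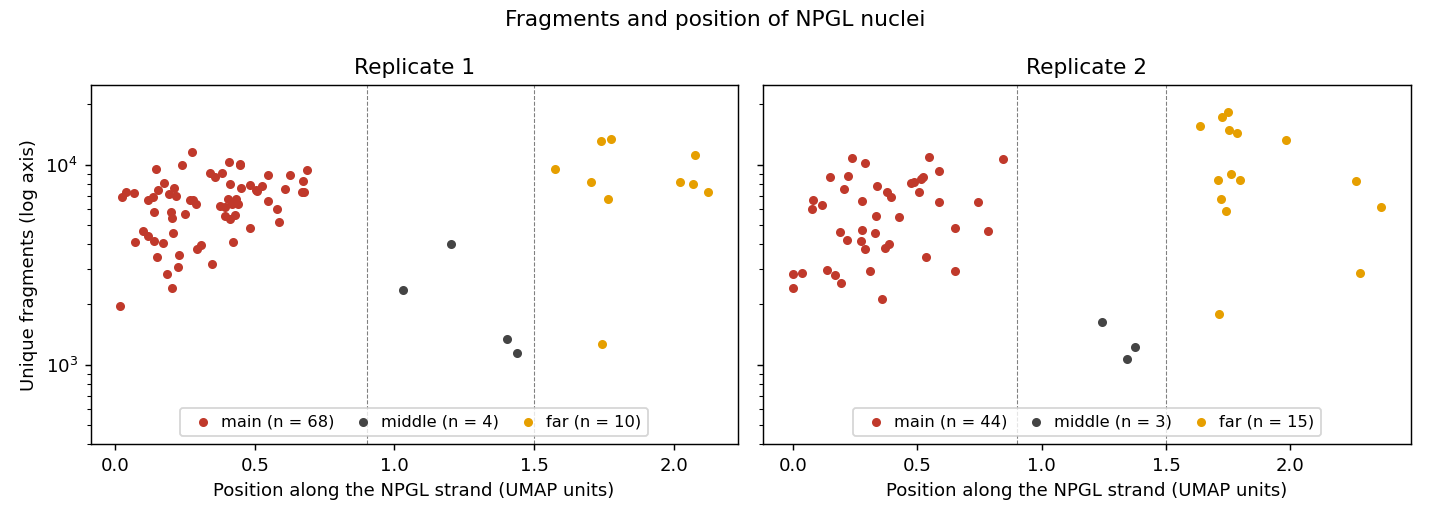
Unique fragments (log axis) against position along the NPGL strand (UMAP units, 0 at the end away from CTGL) for the 82 and 62 nuclei of the group, with one panel per replicate. Dashed lines at 0.9 and 1.5 bound the main (red), middle (dark) and far (orange) stretches, and the middle nuclei lie low whereas the deepest nuclei lie in the far stretch.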

How the data were processed

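Both libraries of single-nucleus ATAC-seq were analysed. The authors deposited, for each nucleus, fragment counts (total, then uniquely mapped, then in proper pairs, then unique, and mitochondrial), a log10 of the unique count plus 1 (deposited, not used here), UMAP coordinates, which are a score without unit that the authors computed, and an annotated name. By the methods, bwa placed reads on mm10, fragments had to pass limits of mapping quality, pairing and length, SnapTools removed duplicates, nuclei had to pass limits of fragment number and TSS enrichment, and potential barcode collisions called by a modified Scrublet were removed. No further doublet step was applied. A fragment filter removes shallow nuclei first, and NPGL was shallow among the glutamatergic names. Cell Ranger ATAC, BWA, mm10 and GRCm38 appear in the processing notes of the submitters, versions being not given in the sources used here. Count columns were read by SnapTools' usual names.

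Shares have exact Clopper-Pearson 95% intervals, and ratios have intervals by the log method, each covering counting error only. Medians were compared within a library. Neighbours were the 30 nearest nuclei of both libraries by Euclidean distance. No p-value was made from nuclei. Intervals and neighbour shares were checked on simulated data. Members, lists and peers were chosen with earlier results of these data known. No gene was measured, so only the 3 given markers are named, and nuclei are named as lowest, median or highest, or for lying outside the NPGL group, with the VEC nucleus added after its position was seen. Alternatives were other fragment minimums, denominators, summaries and neighbour numbers, leaving out the deepest nuclei, and each library alone. Software was scipy 1.17.1, scikit-learn 1.9.0, pandas 2.3.3, numpy 2.4.6, matplotlib 3.10.9 and Python 3.11.15.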

Additional observations from a re-analysis of the deposited data

How the results depend on the processing

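No paired analysis was possible because the samples form a single group with no other condition to pair them with. NPGL and its peers were compared within each library as ratios, without a test, since a paired exact test over 2 libraries cannot give a p below 0.5. The log2 ratio of the NPGL share kept its sign, and the NPGL level of unique fragments stayed below those of CTGL and PTGL. Apart from each library alone, 31 alternatives stayed within the spread of the main value and 15 moved beyond it. The spread was the SD over libraries, or the counting interval for the log2 ratio. An SD over 2 libraries can be wide, so a value within it may still have shifted. With at least 5000 unique fragments the NPGL share of glutamatergic nuclei was 1.39%, against 1.73% as reported. There were then 24.2 NPGL nuclei for every 100 PTGL, against 32.1. Without the deepest 5% of nuclei the share was 1.81%, with 43.1 NPGL nuclei for every 100 PTGL. The values that moved are given next. With all nuclei as denominator the NPGL share was 0.907%. As geometric means over nuclei the NPGL level was 5765 unique fragments and its ratios to CTGL and PTGL were 0.848 and 0.586. Without the deepest 5% of nuclei the ratios were 0.870 and 0.688, and with at least 2000 unique fragments the ratio to PTGL was 0.615. The uniquely mapped share was 89.4% summed over nuclei and 95.85% with at least 5000 unique fragments. Same-name neighbours were 96.1% among 100 neighbours and 97.5% with neighbours from the same library only. In alternatives chosen after seeing the data, leaving out the NPGL nuclei beyond the main stretch gave a median of 6200.5 and ratios of 0.842 and 0.576, and the summed uniquely mapped share was 95.8% without the nucleus with the most total fragments. The cause was not tested.

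Each library alone gave shares of 1.32% to 2.14%, 6.28 to 12.8 NPGL nuclei for every 100 CTGL and 19.0 to 45.1 for every 100 PTGL, medians of 6388 to 6715, and ratios of 0.883 to 0.899 to CTGL and 0.607 to 0.611 to PTGL. The log2 ratio of the NPGL share between libraries lay between -0.90 and -0.57 over its alternatives, and no interval held 0. The -0.90 came from leaving out the NPGL nuclei beyond the main stretch, which was chosen after seeing the data. Counted against single names, the interval held 0 for ITL23GL (-0.94 to 0.04) and PER (-1.16 to 0.27), but not for CTGL and PTGL. All these intervals cover counting error only. The number of NPGL nuclei, 62 in replicate 2, limits what can be said of its tails and stretches, and a fragment minimum of 1000 hides shallower nuclei.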
